A study of Homo sapiens with 20 samples.

Results

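The genes described here are 10 markers and regulators of the mesenchymal state of neuroblastoma: VIM, FN1, CD44, YAP1, WWTR1, FOSL1, FOSL2, PRRX1, SNAI2 and NOTCH2. They were chosen by name as known mesenchymal-type genes, with no measured value in the rule, although earlier results of these data were known. They were matched by gene symbol to the array. All 10 were found, each as 1 transcript cluster, among 17687 genes with a symbol and 21448 clusters tested. The cells were BE(2)-C, an established human neuroblastoma line with MYCN amplification, and each array came from cells that had received a control siRNA or 1 of the lncNB1 siRNAs, siRNA-1 or siRNA-2, 48 h earlier. lncNB1 is a long noncoding RNA, and its own level after knockdown was not analysed here. All cells were given cycloheximide, which holds ribosomes on mRNA, and were fractionated into light polysomes (mRNA carrying few ribosomes) and heavy polysomes (mRNA carrying many). Clariom S arrays measured 100 ng of RNA from each fraction. Each fraction held 4 control, 3 siRNA-1 and 3 siRNA-2 arrays, 20 arrays in 6 groups. Replicates were numbered 1, 2, 3 and 4 for control, 1, 2 and 4 for siRNA-1, and 1, 2 and 3 for siRNA-2. The study describes the polysome experiment as repeated, and the labels number the replicates without saying how each was made. A p-value here covers the spread among these arrays, and some of it may be technical. A single cell line and 1 time point limit the groups as a model of either cell state.

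Neuroblastoma cells can hold an adrenergic state, close to committed sympathetic neuroblasts, or a mesenchymal state, closer to migratory neural crest cells, and cells can move between them. The adrenergic state is carried by factors such as HAND2 and GATA3. The mesenchymal state is marked by vimentin, fibronectin and CD44 and carried by factors such as PRRX1, the AP-1 proteins and the Hippo effectors YAP and TAZ, with Notch signalling able to push cells toward it. BE(2)-C cells have been described as carrying stem-like features beside neuroblastic ones. The question put to the arrays was whether lncNB1 knockdown, or the polysome fraction, moved the mRNAs of these genes.

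Of the 8 members whose RefSeq promoter windows were searched, 2 held a match to a motif of the pathways they belong to. These stretches are shown because YAP1 is itself a partner of TEAD factors and FOSL2 itself an AP-1 subunit. Capitals mark the motif, and each stretch reads 5′ to 3′ on the plus strand of GRCh38.p14.
YAP1, chr11:102110272-102110311, TEAD motif: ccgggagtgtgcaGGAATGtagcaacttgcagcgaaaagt
FOSL2, chr2:28392848-28392877, AP-1 motif: tcgtgccattgtagTGACTCAtctcgggca
Counted from the annotated start, the YAP1 motif began at position -162 and the FOSL2 motif at position 5. Windows of 300 bases (250 before and 50 after a start) of 8 members were searched on both strands. The letters sought were the AP-1 motif TGANTCA, the TEAD motif GGAATG, the Snail E-box CAGGTG and the RBPJ motif TGGGAA. SNAI2 was left out of the search, and no window was at hand for FOSL1. Of all 35116 windows, 7.71% held the AP-1, 14% the TEAD, 20.6% the Snail and 24% the RBPJ letters. The other 6 members searched held none of them. The arrays did not measure promoters, and a match is a description of the letters only.

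The label of the cells was first set against marker genes. An array value was read against 612 negative-control probe sets, whose 95th percentile lay between 4.48 and 4.97 (log2) on heavy arrays and between 4.82 and 5.23 on light arrays. All 7 measured adrenergic markers (PHOX2A, HAND2, GATA3, ISL1, DBH, TH and MYCN) exceeded that limit on all 20 arrays, and their mean level ran from 8.89 to 9.79 over arrays. Of the mesenchymal genes, VIM, SNAI2, FOSL1, FOSL2, CD44 and WWTR1 exceeded it on all 20 arrays. PRRX1 exceeded it on 17, NOTCH2 on 10, FN1 on 9 and YAP1 on none. The limit alone does not show expression, since 2 of 5 leukocyte markers (CD3E and CD14) and 3 of 5 endothelial markers (PECAM1, CDH5 and VWF) also exceeded it on all 20 arrays, as did 3 of 5 Schwann cell markers (SOX10, S100B and FOXD3). By mean distance above the limit, 3 members (VIM, FOSL2 and SNAI2) exceeded every leukocyte and endothelial marker, the highest being VWF (2.19, log2). FOSL1 (1.64), CD44 (1.2) and WWTR1 (0.454) did not, so their signal is not set apart from that of such markers. The mean level per array of the Schwann cell list ran from 4.92 to 5.46, of the leukocyte list from 4.83 to 5.34 and of the endothelial list from 4.97 to 5.19. No gene of these 3 lists was called in any comparison of siRNAs. In pooled RNA of a single cell line, fewer cells in a state and less RNA per cell cannot be told apart. Array medians ran from 6.58 to 6.68, and no array was identical to another.

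Knockdown of lncNB1 left no mesenchymal gene past the threshold, with either siRNA, in either fraction (limma, adjusted p under 0.05). In heavy polysomes siRNA-1 gave 0 calls among the 10 members, beside 8.91% of all clusters called, and siRNA-2 gave 0 of 10 beside 0.415%. Same-numbered control and siRNA-2 heavy arrays deviated together (correlations of 0.369, 0.189 and 0.426), and with the replicate number as a block 590 clusters passed for siRNA-2 in place of 89, with 0 of 10 members. Those of control and siRNA-1 had correlations of 0.62, 0.0539 and 0.467. With the block 3501 clusters passed for siRNA-1 in place of 1912, with 0 of 10 members. In light polysomes siRNA-1 gave 0 of 10 beside 11.6%, and siRNA-2 gave 0 of 10 beside 0.41%. At an unadjusted p under 0.05 the members passing numbered 0, 0, 2 and 1 in that order, and every estimate was within 0.41 (log2) of 0. The median absolute difference of the members under siRNA-1 was 0.0713 (log2) in heavy and 0.104 in light polysomes, where that of all clusters was 0.157 and 0.16. Under siRNA-2 it was 0.0915 in heavy and 0.0906 in light polysomes, beside 0.113 and 0.117. Between the siRNAs it was 0.123 beside 0.166 in heavy and 0.228 beside 0.181 in light polysomes. These medians include YAP1 and light NOTCH2 values below the negative-control limit and FN1 values around it. A missed threshold does not show equal levels, and the 95% intervals over the 10 members still reached from -0.655 to 0.537 (log2) for siRNA-1 and from -0.522 to 0.759 for siRNA-2 in heavy polysomes. In light polysomes they reached from -0.771 to 0.404 and from -0.728 to 0.505. Changes of up to 1.71-fold down or 1.69-fold up therefore fit within the intervals of some members.

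**Figure D1:**
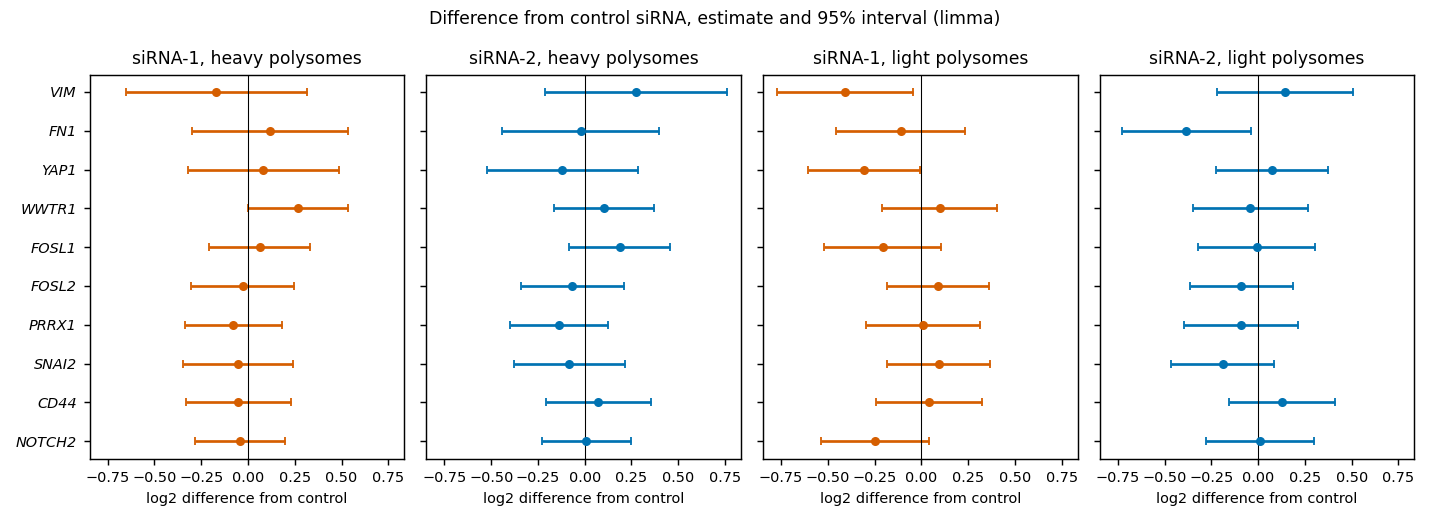
Log2 difference from control siRNA (x axis) of the 10 mesenchymal genes (y axis) under each siRNA in each fraction, with 3 siRNA against 4 control arrays. Points are limma estimates and bars 95% intervals. Estimates lay between -0.408 and 0.274, and the intervals that leave 0 out are those of VIM and YAP1 for siRNA-1 and of FN1 for siRNA-2, all in light polysomes, none of which passed adjustment. YAP1 lay below the negative-control limit in both fractions and NOTCH2 in light polysomes, so their sizes there are not read.

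VIM encodes vimentin, the intermediate filament of mesenchymal cells. In light polysomes its log2 values were 7.34, 7.38, 7.03 and 6.84 with control siRNA, 6.53, 7.15 and 6.54 with siRNA-1, and 7.39, 7.29 and 7.19 with siRNA-2. With siRNA-1, 2 of 3 arrays lay below every control array and the third lay among them, while the siRNA-2 and control arrays overlapped. The difference from control was -0.41 for siRNA-1 (SE 0.171, 95% interval -0.771 to -0.0441, adjusted p = 0.153) and 0.14 for siRNA-2 (SE 0.171, adjusted p = 0.868). All 3 siRNA-1 arrays lay below all 3 siRNA-2 arrays, and the difference between the siRNAs was -0.55 (SE 0.182, 95% interval -0.938 to -0.161, adjusted p = 0.0638). Replicate 4 stood only on the siRNA-1 side and replicate 3 only on the siRNA-2 side. With the replicate number as a block the VIM difference did not pass either. The comparison between siRNAs in light polysomes called 12.3% of all clusters and 0 of 10 members, and the same comparison in heavy polysomes 8.75% and 0 of 10. The VIM result rested on which arrays entered: without siRNA-1 replicate 2 the difference from control was -0.612 (adjusted p = 0.0361) and that from siRNA-2 was -0.753 (adjusted p = 0.015). In heavy polysomes VIM stood at 7.43, 7.74, 8.44 and 7.80 with control siRNA, at 7.59, 7.74 and 7.72 with siRNA-1 and at 7.67, 8.19 and 8.53 with siRNA-2. Of these 6 knockdown arrays 1, of siRNA-2, lay outside the control range, and the differences from control were -0.17 (SE 0.225, adjusted p = 0.745) and 0.27 (SE 0.225, adjusted p = 0.856).

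Among the other surface and matrix members, FN1 encodes fibronectin, a glycoprotein of the extracellular matrix, and CD44 the receptor for hyaluronan. The FN1 mean in light polysomes was 4.91 ± 0.21 for control siRNA (SD, n = 4), 4.79 ± 0.142 for siRNA-1 (n = 3) and 4.52 ± 0.328 for siRNA-2 (n = 3). These values lay around the negative-control limit (FN1 exceeded it on 2 of 10 light arrays), and the siRNA-2 difference of -0.38 (SE 0.161) had an adjusted p of 0.435. In heavy polysomes FN1 ran from 4.18 to 5.08 over all 10 arrays, and both differences from control were within 0.12 (log2) of 0. CD44 varied less than any difference could be read from: its 6 group means spanned 0.184, against a largest group SD of 0.208. Its differences from control lay between -0.0515 (SE 0.131) and 0.125 (SE 0.133).

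The Hippo effectors YAP1 and WWTR1 (which encodes TAZ) are coactivators that enter the nucleus when Hippo kinases are inactive. YAP1 lay below the negative-control limit on all 20 arrays, so no fold is given for it. It passed with neither siRNA in either fraction, and sizes of its differences are not given either, since they lie between values below that limit. WWTR1 had means of 5.18 ± 0.0595 (n = 4), 5.44 ± 0.149 (n = 3) and 5.28 ± 0.19 (n = 3) in heavy polysomes of control, siRNA-1 and siRNA-2 cells. All 3 siRNA-1 arrays (5.36 to 5.62) lay above the 4 control arrays (5.12 to 5.25), and the difference of 0.27 (SE 0.124, 95% interval -0.00168 to 0.533) had an adjusted p of 0.239. In light polysomes the siRNA-1 arrays (5.103, 5.586 and 5.601) enclosed the control range.

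FOSL1 (FRA-1) and FOSL2 (FRA-2) are FOS-family subunits of the transcription factor AP-1. FOSL1 means were 6.57 ± 0.116 (n = 4) in heavy polysomes of control cells, 6.63 ± 0.207 for siRNA-1 (n = 3) and 6.75 ± 0.0621 for siRNA-2 (n = 3), where all 3 arrays lay above the 4 control arrays. The siRNA-2 difference of 0.19 (SE 0.125) had an adjusted p of 0.791. FOSL2 differed from control by -0.0284 and -0.0655 in heavy and by 0.0891 and -0.0891 in light polysomes (siRNA-1 and siRNA-2, each SE 0.128). The arrays of all groups overlapped for FOSL2 in heavy polysomes.

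PRRX1 is a homeodomain factor of mesenchyme, SNAI2 (Slug) a zinc finger repressor of epithelial genes, and NOTCH2 a transmembrane receptor. PRRX1 group means ran from 5.06 to 5.26, a span no larger than the largest group SD (0.202 against 0.241), and it differed from control by -0.137 (SE 0.121) to 0.00625 (SE 0.143) over the 4 comparisons. SNAI2 had differences of -0.0559 and -0.0818 (each SE 0.137) in heavy polysomes and of 0.0934 and -0.19 (each SE 0.129) in light polysomes, for siRNA-1 and siRNA-2. The 3 siRNA-2 light arrays of SNAI2 stood at 9.80, 9.80 and 9.75 beside control arrays at 9.77, 10.0, 9.95 and 10.1. NOTCH2 in light polysomes had a mean of 4.80 ± 0.182 for control siRNA (n = 4), 4.56 ± 0.16 for siRNA-1 (n = 3) and 4.81 ± 0.142 for siRNA-2 (n = 3), all of its 10 light arrays lying below the negative-control limit. In heavy polysomes its differences from control were within 0.05 (log2) of 0.

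**Figure D2:**
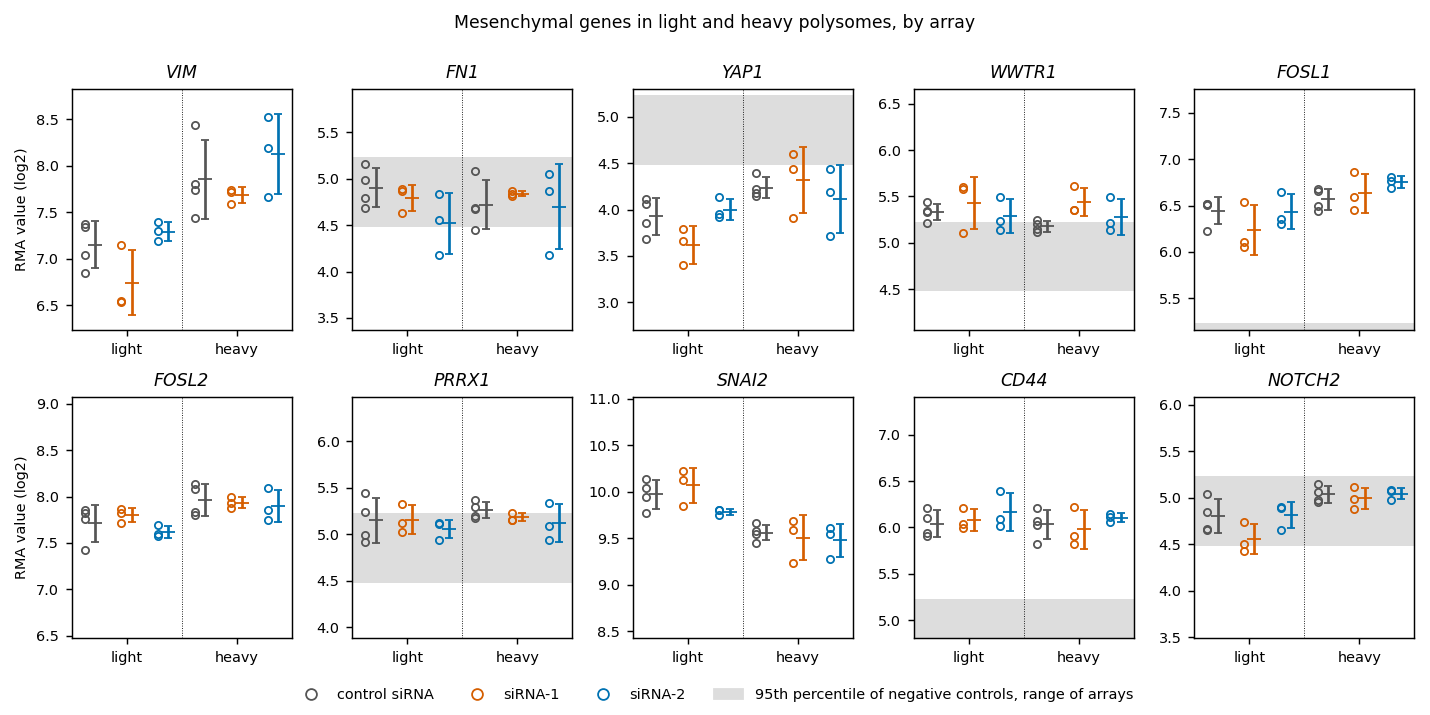
RMA values (y axes, log2) of the 10 mesenchymal genes on 20 arrays, in light and heavy polysomes (x axes), with 1 open point per array and the mean ± SD of each siRNA group beside the points (n = 4 control, 3 siRNA-1, 3 siRNA-2). The grey band spans the 95th percentile of the negative controls over arrays (4.48 to 5.23). VIM and SNAI2 are the members whose heavy and light arrays do not overlap, and YAP1 is below the limit throughout.

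Between the polysome fractions VIM and SNAI2 differed, in opposite directions. In control cells, 2 of 10 members differed between heavy and light polysomes, beside 27.3% of all clusters, 14.5% higher and 12.8% lower in heavy polysomes. VIM was higher in heavy polysomes by 0.70 (SE 0.201, 95% interval 0.276 to 1.13, 1.63-fold, adjusted p = 0.016), and SNAI2 was lower, by -0.41 (SE 0.106, 95% interval -0.639 to -0.187, adjusted p = 0.00864). RMA gives arrays that are normalized together the same overall distribution, and whether heavy and light arrays were is not stated. These differences therefore say where an mRNA stood among the mRNAs of its fraction, not how much of it the fraction held. Both calls rested on 4 transfections. A heavy and a light array with the same siRNA and replicate number were taken as 1 transfection throughout, which the labels do not state. VIM lost its call without control replicate 3 (0.47, adjusted p = 0.117) or replicate 4 (0.621, adjusted p = 0.0934), and SNAI2 without control replicate 4 (-0.365, adjusted p = 0.0612).

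VIM was higher in heavy than in light polysomes in 10 of 10 transfections. The heavy minus light differences were 0.0908, 0.363, 1.41 and 0.955 with control siRNA, 1.06, 0.592 and 1.18 with siRNA-1, and 0.272, 0.897 and 1.34 with siRNA-2. The smallest control and siRNA-2 differences came from replicate 1, whose heavy and light arrays stood less far apart over all clusters as well: the slope of a transfection's differences on the mean of the other transfections was 0.527, 0.585 and 0.727 for replicate 1 of control, siRNA-1 and siRNA-2, and 0.9 to 1.38 for the others. The part of that replicate in the VIM values was not tested beyond leaving it out, which raised the mean of the 3 groups for VIM to 0.971. The 10 heavy arrays of VIM (7.43 to 8.53, median 7.74) lay above all 10 light arrays (6.53 to 7.39, median 7.17).

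SNAI2 was lower in heavy polysomes in 10 of 10 transfections. The differences were -0.223, -0.38, -0.492 and -0.555 with control siRNA, -0.621, -0.533 and -0.532 with siRNA-1, and -0.187, -0.256 and -0.469 with siRNA-2. Its 10 heavy arrays (9.23 to 9.69, median 9.57) lay below all 10 light arrays (9.75 to 10.2, median 9.90). Such separation was not rare: 8.38% of all clusters had heavy and light arrays that did not overlap, 4.28% with heavy above and 4.09% with heavy below, and 14.1% were higher and 10.4% lower in heavy polysomes in 10 of 10 transfections. The other 8 members had overlapping heavy and light arrays. A gene listed as a marker of another cell type also moved with the fraction in control cells of this single line. S100B, of the 5 measured Schwann cell markers, was lower in heavy polysomes by -0.86 (SE 0.174, adjusted p = 0.0019). Any link between the S100B and SNAI2 differences was not tested. LYZ, the 1 of 5 leukocyte markers called, had a mean below the negative-control limit, and 0 of 5 endothelial markers were called.

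**Figure D3:**
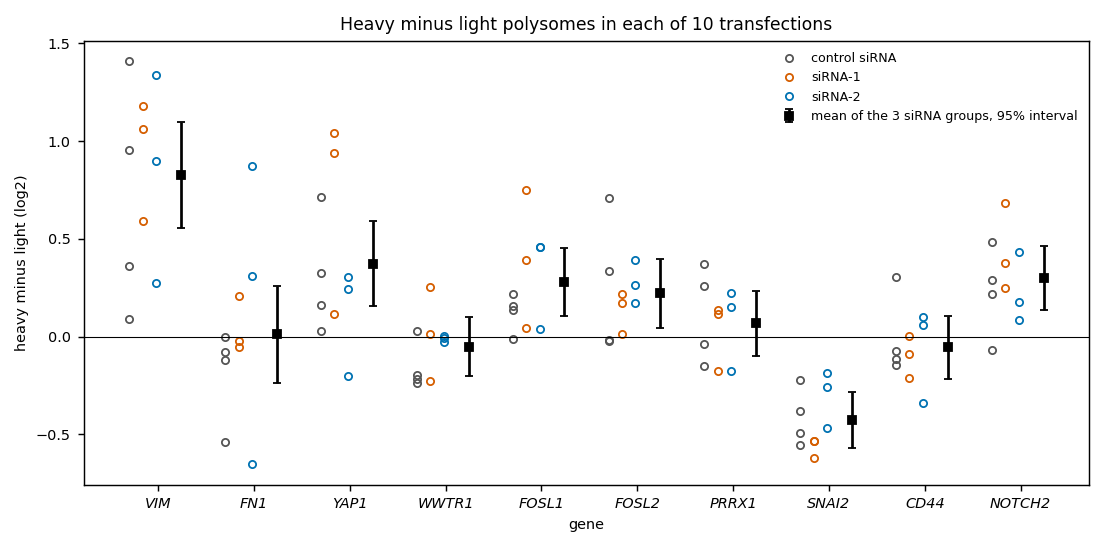
Heavy minus light difference (y axis, log2) of the 10 mesenchymal genes (x axis) in each of 10 transfections, with open points coloured by siRNA and, as black squares with 95% intervals, the limma mean of the 3 siRNA groups. VIM lies above 0 and SNAI2 below 0 in all 10 transfections. YAP1 was below the negative-control limit in both fractions and NOTCH2 in light polysomes.

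The mean heavy minus light difference over the 3 siRNA groups, a comparison added after the data were seen, called 6 of 10 members beside 43.2% of all clusters (22.4% higher, 20.7% lower). Of markers of other cell types it called 3 of 5 leukocyte markers, all lower in heavy polysomes (CD14 by -0.304, CD3E by -0.296, and LYZ). LYZ had a mean below the negative-control limit, so its size is not given. The same comparison also called 1 of 5 Schwann cell markers (S100B, -0.70) and 0 of 5 endothelial markers. VIM was higher in heavy polysomes by 0.83 (SE 0.128, 1.77-fold, adjusted p = 7.72e-05) and SNAI2 lower, by -0.43 (SE 0.0676, adjusted p = 9.59e-05). FOSL1 was higher by 0.28 (SE 0.0808, 1.21-fold, adjusted p = 0.0103), with 9 of 10 transfections above 0, and FOSL2 by 0.22 (SE 0.0815, 1.17-fold, adjusted p = 0.0398), with 8 of 10 above 0. The FOSL2 call did not hold with control replicate 3 or 4, replicate 1 or 4 of siRNA-1, or any replicate of siRNA-2 left out (0.17 to 0.237, adjusted p from 0.0554 to 0.0985). The other 2 calls, NOTCH2 (adjusted p = 0.00514) and YAP1 (adjusted p = 0.00689), were on the higher side in 9 of 10 transfections each, but their sizes are not given. YAP1 was below the negative-control limit on all arrays of both fractions. NOTCH2 exceeded it on 10 of 10 heavy and 0 of 10 light arrays, and its heavy mean of 5.03 was not above the mean light limit of 5.03. The limit itself had a median of 4.66 on heavy and 4.99 on light arrays, and its part in these 2 calls was not tested. The members that did not pass were FN1 (0.01, SE 0.116), WWTR1 (-0.05, SE 0.0702), PRRX1 (0.07, SE 0.078) and CD44 (-0.06, SE 0.0754), whose 95% intervals all lay within 0.26 (log2) of 0.

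The differences of the smaller calls varied between transfections. FOSL1 had -0.0113, 0.216, 0.158 and 0.136 with control siRNA, 0.0465, 0.392 and 0.752 with siRNA-1, and 0.461, 0.0397 and 0.459 with siRNA-2, so that only 1 control transfection fell below 0. FOSL2 had -0.0152, -0.0218, 0.711 and 0.334 with control siRNA, 0.22, 0.0114 and 0.172 with siRNA-1, and 0.174, 0.262 and 0.391 with siRNA-2, its highest value coming from control replicate 3, the transfection with the highest VIM value too. The members without a call had values on both sides of 0 in all siRNA groups but 1: FN1 ran from -0.653 to 0.873, PRRX1 from -0.174 to 0.374, CD44 from -0.338 to 0.305 and WWTR1 from -0.235 to 0.256, and FN1 was lower in heavy polysomes in all 4 control transfections. FN1 had the widest range of these, and its highest and lowest values were both from siRNA-2.

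The order of the 6 groups followed the fraction for VIM, from siRNA-2, control and siRNA-1 in heavy polysomes to siRNA-2, control and siRNA-1 in light polysomes. Neighbours in that order overlapped in 4 of 5 pairs, the exception being the step from heavy siRNA-1 to light siRNA-2. SNAI2 ran from siRNA-1, control and siRNA-2 in light polysomes to control, siRNA-1 and siRNA-2 in heavy polysomes, and only the step from light siRNA-2 to heavy control did not overlap. For each of the other 8 members all 5 neighbouring pairs overlapped.

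Whether knockdown changed the heavy minus light difference was tested directly on the 10 transfections. With siRNA-1, 0 of 10 members passed and 0% of all clusters were called (0 of 21448 by limma, 1206 at an unadjusted p under 0.05), and with siRNA-2 likewise 0 of 10 beside 0% (542 at an unadjusted p under 0.05). None of the 10 members had an unadjusted p under 0.05 in either test. The VIM shift was 0.24 for siRNA-1 (SE 0.307, 95% interval -0.417 to 0.892) and 0.13 for siRNA-2 (SE 0.307, -0.523 to 0.787). The SNAI2 shift was -0.15 (SE 0.162, -0.495 to 0.196) and 0.11 (SE 0.162, -0.237 to 0.454). The highest upper end over the members was that of FN1 for siRNA-2 (0.36, SE 0.278, -0.233 to 0.956), whose arrays lay around the negative-control limit.

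The members did not vary as 1 group over the 20 arrays. Of 45 pairs of members, 6 had a Pearson r above 0.5 and 4 below -0.5. The points share the split into heavy and light arrays, and YAP1 values and the light NOTCH2 values are below the negative-control limit. FOSL1 and NOTCH2 had r = 0.828, VIM and NOTCH2 0.656, and VIM and FOSL2 0.636, while SNAI2 ran opposite to VIM (-0.763), NOTCH2 (-0.739), FOSL1 (-0.706) and YAP1 (-0.584). Within groups, after the group means were removed, 3 pairs stayed above 0.5 (FOSL1 and NOTCH2 at 0.666, VIM and FOSL2 at 0.657, FN1 and PRRX1 at 0.615), and VIM and SNAI2 stood at -0.196. The genes whose values over the 20 arrays were most like those of VIM were TLE1 (r = 0.928), KIF16B (0.927) and SMARCA4 (0.926). Those most like SNAI2 were BPGM (0.924), SGCZ (0.918) and ZCCHC10 (0.912).

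Genes of the pathways around these members were counted in lists, to be read beside the shares of all clusters called (8.91% heavy and 11.6% light with siRNA-1, 0.415% and 0.41% with siRNA-2), against which no list was tested. The lists were chosen with earlier results of these data known, which limits any contrast between them. Of 17 measured mesenchymal transcription factors, 0 rose and 1 fell with siRNA-1 in heavy polysomes (5.88%), and 0 rose and 2 fell in light polysomes (11.8%), shares near those of all clusters. TWIST1, a bHLH factor of mesenchyme, fell by 0.62 in heavy (SE 0.161, adjusted p = 0.0293) and by 0.60 in light polysomes (SE 0.128, adjusted p = 0.00615). SNAI1, the closest relative of SNAI2, fell by 0.77 in light polysomes (SE 0.178, adjusted p = 0.0103), from 7.98 ± 0.253 (n = 4) to 7.22 ± 0.405 (n = 3). With siRNA-2 none of the 17 passed in either fraction, and the difference between siRNAs in light polysomes passed for SNAI1 (-1.0, SE 0.19, adjusted p = 0.00281) and TWIST1 (-0.64, SE 0.137, adjusted p = 0.00605), and on the other side for ELK4, an ETS factor (0.49, SE 0.119, adjusted p = 0.0134). SNAI2 had 0.28 in that same comparison (SE 0.138, adjusted p = 0.221).

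Around YAP1 and WWTR1, 1 of 15 Hippo pathway genes and TEAD factors fell with siRNA-1 in heavy polysomes, NF2 (merlin, an upstream activator of the Hippo kinases), by 0.56 (SE 0.129, adjusted p = 0.0156). No other Hippo gene passed against control. Of 13 YAP and TAZ target genes, 0 passed with either siRNA in either fraction. NT5E, a surface nucleotidase in that list, differed between the siRNAs by -0.91 in heavy (SE 0.127, adjusted p = 0.000879) and by -0.87 in light polysomes (SE 0.228, adjusted p = 0.0207). Around FOSL1 and FOSL2, 1 of 11 other AP-1 subunits passed against control: JUN, the usual dimer partner of FOS proteins, rose with siRNA-1 in light polysomes by 0.77 (SE 0.166, adjusted p = 0.00681).

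Around NOTCH2, 1 of 22 Notch genes rose with siRNA-1 in heavy polysomes, HEY1, a target gene, by 0.62 (SE 0.174, adjusted p = 0.0429). In light polysomes HEY1 rose by 0.57 (SE 0.141, adjusted p = 0.015), and MAML3, a coactivator, and DLL3, a ligand, fell by 0.66 (SE 0.136) and 0.57 (SE 0.164). HES1, another target, fell with siRNA-2 by 0.69 in light polysomes (SE 0.12, adjusted p = 0.0198) and was the only Notch gene to pass with siRNA-2. Around FN1 and CD44, 3 of 28 matrix genes and matrix receptors rose and 2 fell with siRNA-1 in heavy polysomes, and 2 rose and 1 fell in light polysomes. LUM, the proteoglycan lumican, rose by 2.37 in heavy (SE 0.21, adjusted p = 4.65e-05) and by 2.39 in light polysomes (SE 0.225, adjusted p = 1.78e-05). Its control arrays in light polysomes (4.795 to 5.647) lay around the negative-control limit. DCN, the related decorin, rose by 0.90 (SE 0.177) and 0.70 (SE 0.12), and EZR, ezrin, fell in heavy polysomes (-0.58, SE 0.164). COL5A1, a collagen, was called lower in light polysomes. Its siRNA-1 arrays there (4.317 to 4.568) lay below the negative-control limit, so its size is not given. With siRNA-2 none of the 28 passed.

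Around VIM, 0 of 14 other intermediate filament genes passed with either siRNA in heavy polysomes, and in light polysomes PRPH, peripherin, rose by 0.40 (SE 0.114, adjusted p = 0.0304) and LMNB1, lamin B1, fell by 0.56 (SE 0.154, adjusted p = 0.0268) with siRNA-1. All 14 had a lower heavy value with siRNA-1 than with siRNA-2 (-0.891 to -0.0451, median -0.21), and only LMNB1 passed (-0.89, SE 0.242, adjusted p = 0.0349). VIM stood at -0.44 in that comparison (SE 0.241, adjusted p = 0.319). In light polysomes the same difference ran from -0.711 to 0.119 over the 14 genes (median -0.0252), and 1 passed. Over all clusters the median difference between the siRNAs was -0.00034 in heavy and 0.012 in light polysomes. How many of all clusters were lower with siRNA-1 was not counted. Of 11 TGF-beta pathway genes, TGFB3, a ligand, rose with siRNA-1 in both fractions (0.56, SE 0.16, and 0.77, SE 0.12), ACVR1, a receptor, fell in heavy polysomes (-0.67, SE 0.127) and SKIL, a SMAD corepressor, rose in light polysomes (0.44, SE 0.13). With siRNA-2, TGFBR1, a receptor, rose in light polysomes (0.75, SE 0.153, adjusted p = 0.0498) and no other gene of that list passed. Of 23 adrenergic genes, 2 rose and 4 fell with siRNA-1 in each fraction (26.1%), among them HAND2 (-0.75, SE 0.157 in heavy, and -0.84, SE 0.112 in light polysomes) and ISL1 (-0.75, SE 0.215, and -0.71, SE 0.122), while SATB1 rose (1.66, SE 0.21, and 1.71, SE 0.147). With siRNA-2, 1 of 23 fell in each fraction, STMN2 (-1.38, SE 0.139, and -1.23, SE 0.153).

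**Figure D4:**
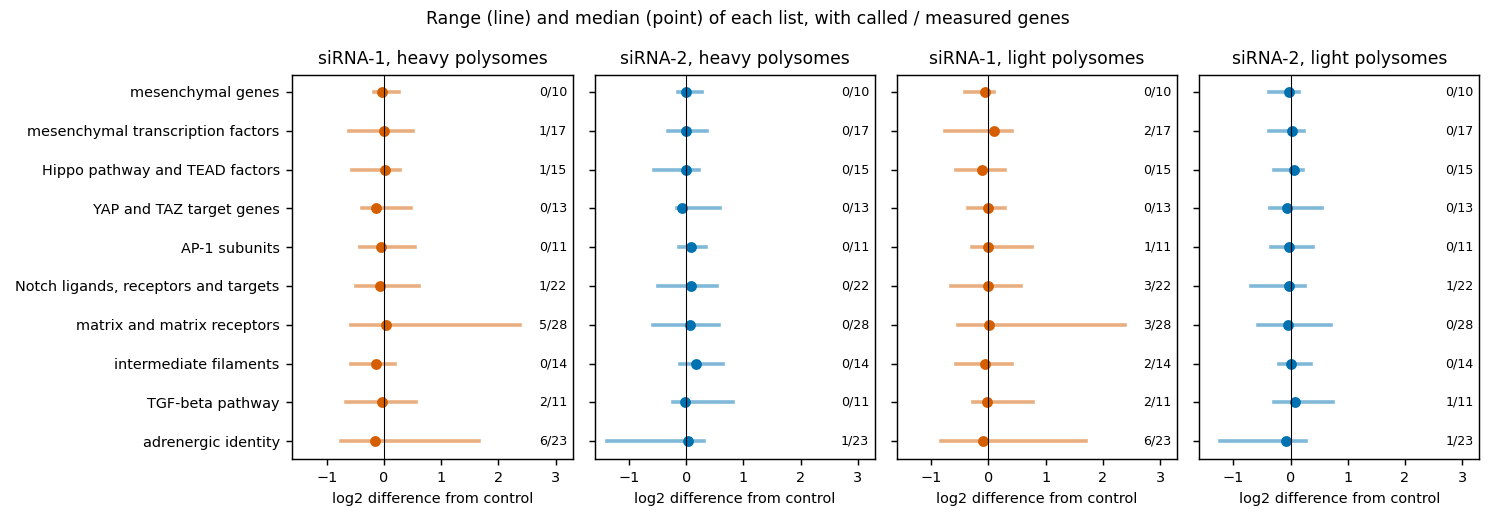
Log2 difference from control siRNA (x axis) of the mesenchymal genes and of 9 related lists (y axis), under each siRNA in each fraction. Lines span the lowest to the highest estimate, points are medians, and the figures at the right give genes called over genes measured. The mesenchymal genes have 0 of 10 called in all 4 panels, and the adrenergic list 6 of 23 with siRNA-1 and 1 of 23 with siRNA-2 in each fraction. The lists were chosen with earlier results of these data known.

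Between fractions of control cells, 14.5% of all clusters were higher and 12.8% lower in heavy polysomes, and the lists were not tested against these shares. Of the 14 other intermediate filament genes 6 were higher in heavy polysomes and 0 lower, with INA (alpha-internexin) at 1.12 (SE 0.169, adjusted p = 0.000244), LMNB1 at 0.88 (SE 0.204) and NEFH at 0.75 (SE 0.215). Of 28 matrix genes and receptors 8 were higher and 1 lower, with LUM at 1.23 (SE 0.22) and the integrins ITGB1 at 1.11 (SE 0.123) and ITGAV at 0.74 (SE 0.134), where FN1 had -0.19 (SE 0.182, adjusted p = 0.521). The light LUM values of control cells lay around the negative-control limit. Of 15 Hippo genes 5 were higher and 1 lower, of 13 YAP and TAZ target genes 2 and 1, of 11 other AP-1 subunits 1 and 1, and of 22 Notch genes 1 and 0. Of 11 TGF-beta pathway genes 3 were higher and 1 lower, of 23 adrenergic genes 9 and 2, and of 17 mesenchymal transcription factors, the group of SNAI2 and PRRX1, 2 and 2. The median difference was 0.36 for the intermediate filament genes and 0.118 for the 10 members, beside -0.016 for all clusters.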

How the data were processed

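The authors processed the arrays with RMA from the oligo package and deposited 1 log2 value per probe set, the only unit used here. RMA corrects background, normalizes by quantiles and summarizes probes, so a value places an mRNA among those of its array. R 3.5.3 and limma 3.38.3 are named in the submitters' processing notes. Neither the genome build nor whether 1 normalization covered both fractions is stated in the labels or the study's methods.

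The table has 27189 probe sets. Without 5741 controls and other kinds, 21448 transcript clusters were tested, and 17709 of these have 1 gene symbol and 3739 none. Groups came from sample titles. Tests used R 4.3.3 and limma 3.58.1 (lmFit, eBayes), Benjamini-Hochberg adjusted over the 21448 clusters, with calls at an adjusted p under 0.05. siRNAs were compared within the 10 heavy and within the 10 light arrays. Fractions were compared on heavy minus light differences of 10 transfections, each pair sharing siRNA and replicate number. The labels do not say that such a pair is 1 transfection. Deviations of such arrays from their group means correlated between -0.0553 and 0.226. Across siRNAs, every same-numbered pair exceeded 0.1 for control and siRNA-2 in heavy polysomes, but not for control and siRNA-1. The replicate block is given beside both heavy results. A log2 difference of 1 is 2-fold. The number of arrays limits the precision.

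Members, lists and tests were chosen with earlier results of these data known. All members are named, and of other lists up to 3 called genes per comparison, those with the largest change. The 3 genes most correlated with VIM and with SNAI2, the members called in control cells, were named. Alternatives were a repeated quantile normalization, a filter on a mean of 5, array weights, a replicate block, unpaired or joint fits, the thresholds of 1.5-fold at an unadjusted p under 0.05, and leaving out arrays. The fits were tested on simulated data. Promoter windows are from RefSeq (GRCh38.p14), and the window of SNAI2 was neither searched nor shown.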

Additional observations from a re-analysis of the deposited data

Results flagged for a closer look

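In 30 groups of 4 values (10 members in control heavy arrays, control light arrays and control heavy minus light differences), 3 had 1 value far from the rest by Dixon's ratio of its gap to the group's range. Chance alone marks about 1 in 20 such groups. FOSL1 in control light polysomes (ratio 0.964) stood at 6.22 on replicate 2 and at 6.51, 6.52 and 6.52 on the other arrays. The WWTR1 heavy minus light difference in control cells (ratio 0.845) was 0.0295 in replicate 3 and between -0.235 and -0.195 in the others. The CD44 heavy minus light difference in control cells (ratio 0.844) was 0.305 in replicate 1 and between -0.144 and -0.0741 in the others. No shift of a member's heavy minus light difference under siRNA passed its test.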

How the results depend on the processing

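Of 1610 values of members recomputed under 18 other settings, 1594 stayed on the same side of the threshold, 12 lost and 4 gained a call, and 0 called values changed sign. FN1, YAP1 and NOTCH2 have no value under the filter on a mean of 5. VIM passed between siRNAs in light polysomes with that filter (-0.549, adjusted p = 0.0431) and with array weights (-0.561, adjusted p = 0.0438), each time making 1 member called in place of 0. FOSL2 lost its fraction call when quantile normalization was repeated (adjusted p = 0.0734) or replicate 1 was left out of every group (adjusted p = 0.0597). The cause was not tested.

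Counts of all clusters moved by more than 1.5 times as follows, the first count being that of the report. For siRNA-2 in light polysomes (88), 164 passed with the mean filter, 304 with array weights, 257 at 1.5-fold and an unadjusted p under 0.05, and 21 without replicate 1 in every group. For siRNA-2 in heavy polysomes (89), 308 passed with array weights, 189 in 1 fit of all 20 arrays and 299 at 1.5-fold. For siRNA-1 in light polysomes (2486), 1565 passed at 1.5-fold and 1482 without replicate 1 in every group. Between siRNAs, 3476 passed in heavy polysomes (1877) with array weights, and 1451 in light polysomes (2635) without replicate 1 in every group. For the siRNA-1 shift (0), array weights gave 3 clusters, and leaving replicate 1 out of every group gave 1. No member passed in these shifts.

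Same-numbered arrays of different siRNAs had correlations of deviations from -0.104 to 0.62, 10 of 16 above 0.1. All 3 pairs exceeded 0.1 for control and siRNA-2 in heavy polysomes only. Control and siRNA-1 heavy arrays had the highest value, 0.62, with 0.467 and 0.0539 beside it. The counts of the report use no replicate block in any comparison of siRNAs. With a replicate block, 3501 clusters passed for siRNA-1 (1912), 590 for siRNA-2 (89) and 3319 between siRNAs (1877) in heavy polysomes, and 0 of 10 members in each. The block moved no light count by over 1.5 times and changed no call of a member.

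With 1 array or transfection left out, counts of all clusters ran from 913 to 1881 for siRNA-1, 10 to 121 for siRNA-2 and 908 to 2070 between siRNAs in heavy polysomes, and from 1531 to 2427, 19 to 124 and 1567 to 2790 in light polysomes. The fraction counts ran from 3637 to 6164 in control cells and from 8271 to 9313 for the mean of 3 groups. Members called ran from 0 to 1 for siRNA-1 against control and against siRNA-2 in light polysomes (VIM), from 0 to 2 for the fractions of control cells and from 5 to 6 for the mean of 3 groups.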
